A study of Homo sapiens with 6 samples.

Results

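Interferon-stimulated genes are genes whose transcription rises when a cell senses interferon, and many of their products block viruses or relay the interferon signal. A list of 42 gene symbols was matched to the 19470 genes of the deposited count table, and all 42 were found. The list holds transcription factors that carry the interferon signal, sensors of foreign nucleic acid, and antiviral effectors. The members were followed in A549, a human lung adenocarcinoma cell line, in which RNA was sequenced in bulk from 3 libraries of dormant cells and 3 libraries of cells activated with osteoclast-conditioned medium (osteoclasts resorb bone). The cells of both groups are labelled as wild type. The study asked which genes differ as lung adenocarcinoma cells pass from dormancy to activation. Sample names carry the tag SF for dormant and OC for activated libraries, and the sources used here do not give the base media, the times or how dormancy was induced. Activated cells therefore differ from dormant ones in state and in medium together, and nothing in the labels says that replicate libraries were grown as separate cultures, so the p-values measure the spread between libraries, which may be technical.

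Type I interferons bind IFNAR1 and IFNAR2, whose kinases JAK1 and TYK2 phosphorylate STAT2. STAT2 works with IRF9 in the complex ISGF3, which binds the interferon-stimulated response element in promoters. Interferon gamma acts through a different element, the gamma-activated site, and induces IRF1. In tumour cells many of the genes are also expressed at a basal level without added interferon.

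The response element is a sequence feature known from the promoters of many interferon-stimulated genes, so the promoters of several members were read. RefSeq windows of 300 bases (250 before to 50 after a listed transcription start, GRCh38.p14) were matched for 31 of the 42 members, and IFIT2, IFITM2, MX2, OAS2, OASL, USP18, IRF2, IRF3, IRF7, TRIM22 and GBP2 were not matched. The stretches below are printed 5′ to 3′ on the gene's own strand, and capitals mark each match to the response element core GAAANNGAAA on either strand (TTTCNNTTTC when read from the opposite strand). The first 3 belong to members that were lower in activated cells, IFIT1 to a member that did not pass the test, the next 4 to members that were higher, and the last to a member that was lower and shares its match with a member that was higher. The stretches are IFIT3 at chr10:89327827-89327896 on the plus strand, ISG20 at chr15:88638926-88638986 on the plus strand, IFIH1 at chr2:162318685-162318744 on the minus strand, IFIT1 at chr10:89392493-89392542 on the plus strand, IFITM3 at chr11:320870-320930 on the minus strand, IFI44L at chr1:78620350-78620409 on the plus strand, OAS3 at chr12:112938413-112938473 on the plus strand, ISG15 at chr1:1013367-1013416 on the plus strand, and DTX3L at chr3:122564301-122564341 on the plus strand.
IFIT3: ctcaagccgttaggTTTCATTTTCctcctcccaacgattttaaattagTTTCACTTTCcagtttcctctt
ISG20: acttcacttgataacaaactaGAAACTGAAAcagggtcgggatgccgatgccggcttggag
IFIH1: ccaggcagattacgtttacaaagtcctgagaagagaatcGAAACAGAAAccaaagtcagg
IFIT1: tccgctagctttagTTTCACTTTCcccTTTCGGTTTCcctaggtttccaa
IFITM3: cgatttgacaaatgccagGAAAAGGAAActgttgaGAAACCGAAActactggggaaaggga
IFI44L: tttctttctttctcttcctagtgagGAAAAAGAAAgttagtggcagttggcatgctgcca
OAS3: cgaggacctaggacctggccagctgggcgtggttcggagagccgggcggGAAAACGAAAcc
ISG15: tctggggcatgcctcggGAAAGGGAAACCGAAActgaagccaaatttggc
DTX3L: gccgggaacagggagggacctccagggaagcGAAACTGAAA

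The core was present in the windows of 22 of the 31 members (71.0%), against 3.57% of all 35116 windows and 3.96% of the tested genes that have a window. It was found in 8 of the 9 members that were higher in activated cells and in 9 of the 15 that were lower, so members with the core lay on both sides. Across all tested genes it was found in 3.16% of those higher and 4.54% of those lower. The gamma-activated site core TTCNNNGAA was searched on both strands and counted apart from any overlap with the other core. This second core was found in 9 of the 31 members (29%), against 7.66% of all windows and 8.75% of the tested genes that have a window. A match is a description of letters and not a measured binding site. In the plot of match positions, the matches of members that rose and of members that fell both lay mostly in the bases before the start.

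**Figure D1:**
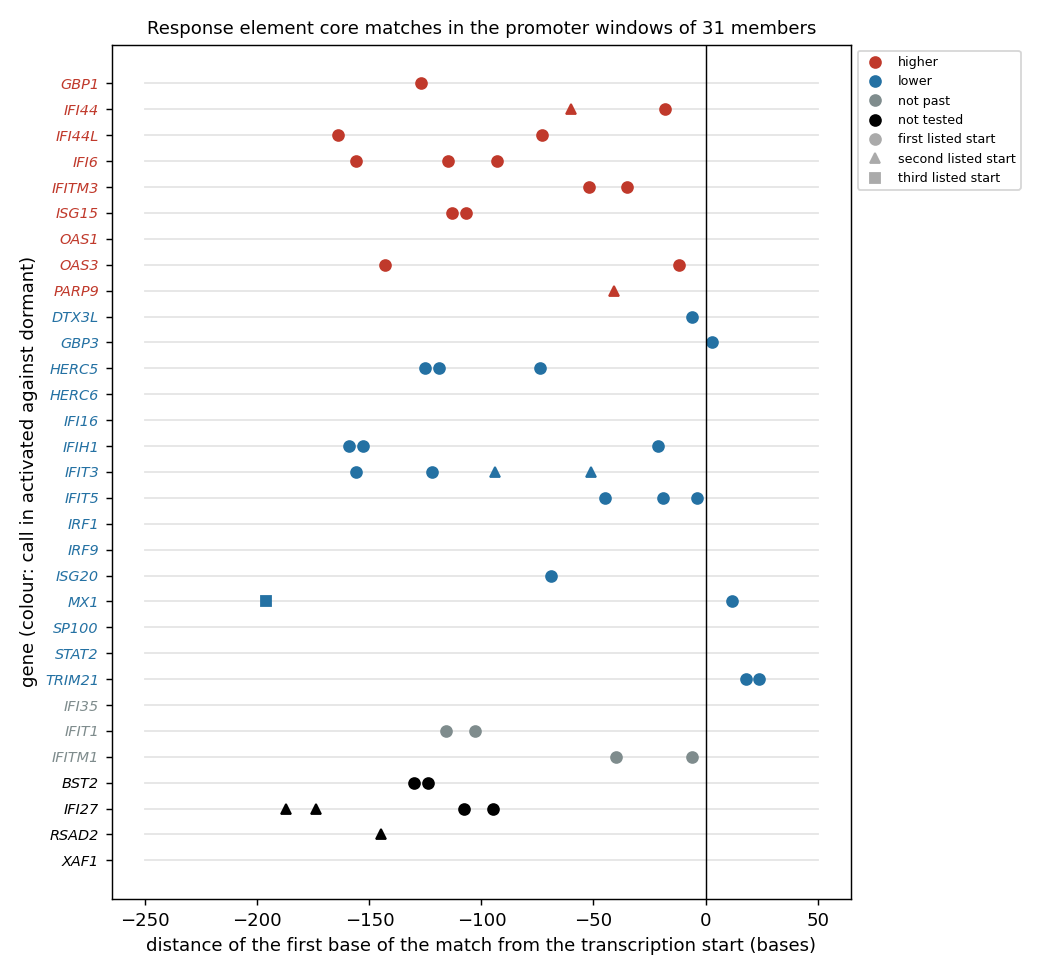
Position of each response element core match (x axis, bases from the listed transcription start) in the 300-base windows of 31 members (y axis), coloured by the call in activated against dormant cells and shaped by which listed start the window belongs to. Matches are drawn for 22 members, namely 8 that rose, 9 that fell and 5 others, and rows without a symbol had no match.

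The 6 libraries held between 34128471 and 36667725 counts each. Correlations of log expression were at least 0.9936 within a group and at most 0.9284 between groups. The median log2 change over all tested genes was -0.02. Of all 13336 tested genes 36.5% were higher and 37.2% lower in activated cells (edgeR adjusted p under 0.05). All 12 A549 epithelial markers were tested, with 7 higher, 3 lower and 2 not past the threshold. Their summed level was 8897 to 9209 CPM (counts scaled to library size with edgeR's TMM factors) in dormant and 21158 to 22108 CPM in activated libraries, with ALDH1A1 going from 1570.3 to 7700.5 CPM, TGFBI from 982 to 4603 CPM and NQO1 from 1177 to 719 CPM. EPCAM was low, at 1.28 and 0.611 CPM. Of 14 myeloid markers 5 were tested and higher in activated cells, 2 of them (CSF1R and LAPTM5) admitted by the filter only through the activated libraries. Their list had summed levels of 136 to 148 CPM against 166 to 174 CPM. Most of that sum was CD68, at 135 and 152 CPM. CD14 went from 1.10 to 9.25 CPM, ITGAM from 3.39 to 5.88, LAPTM5 from 0.224 to 2.10 and CSF1R from 0.0877 to 0.774. TYROBP, AIF1, C1QA, C1QB and C1QC were at 0 in every library. Of 12 osteoclast markers 8 were tested, with 2 higher and 4 lower. MMP9 was admitted only through the activated libraries, and ACP5 and ATP6V0D2 only through the dormant ones. The summed level of the osteoclast list was 58.4 to 61.5 CPM in dormant and 253 to 335 CPM in activated libraries. Most of that sum in activated cells was ITGB3, which went from 5.88 to 265 CPM, while ATP6V0D2 went from 19.3 to 0.0707 CPM, and CALCR, DCSTAMP and OCSTAMP were at 0. Of 12 lymphocyte and plasmacytoid dendritic cell markers 9 were at 0, with a sum of at most 0.731 CPM in any library. Of 10 stromal markers 5 were tested, 4 higher (DCN and PDGFRA admitted only through the activated libraries) and 1 lower, with sums of 19.9 to 23.6 CPM and 19.3 to 21.3 CPM. The part of these markers in the changes of the members was not tested.

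The members moved in both directions. Of the 37 members with enough counts to test, 14 were higher in activated cells, 18 were lower and 5 did not pass (edgeR quasi-likelihood test, Benjamini-Hochberg adjusted p under 0.05). Over all 13336 tested genes 73.7% were called, 36.5% higher and 37.2% lower, so the 37.8% of members that rose lie close to the share of all genes, and the 48.6% that fell lie somewhat above it. At a change of at least 2-fold, 6 members rose and 8 fell, where 11.2% and 11.0% of all genes did. The median log2 change of the tested members was -0.23, and their fitted changes ran from -3.71 for ISG20 to 3.51 for OASL and 3.94 for MX2. MX2, one of the 14 higher members, was admitted to the test only by its activated libraries. The CPM values of the 2 groups did not overlap for 32 of the 37 tested members (86.5%), against 76.5% of all tested genes, and these were the 32 that were called. In bulk RNA, fewer cells expressing a gene and less RNA per cell cannot be told apart.

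**Figure D2:**
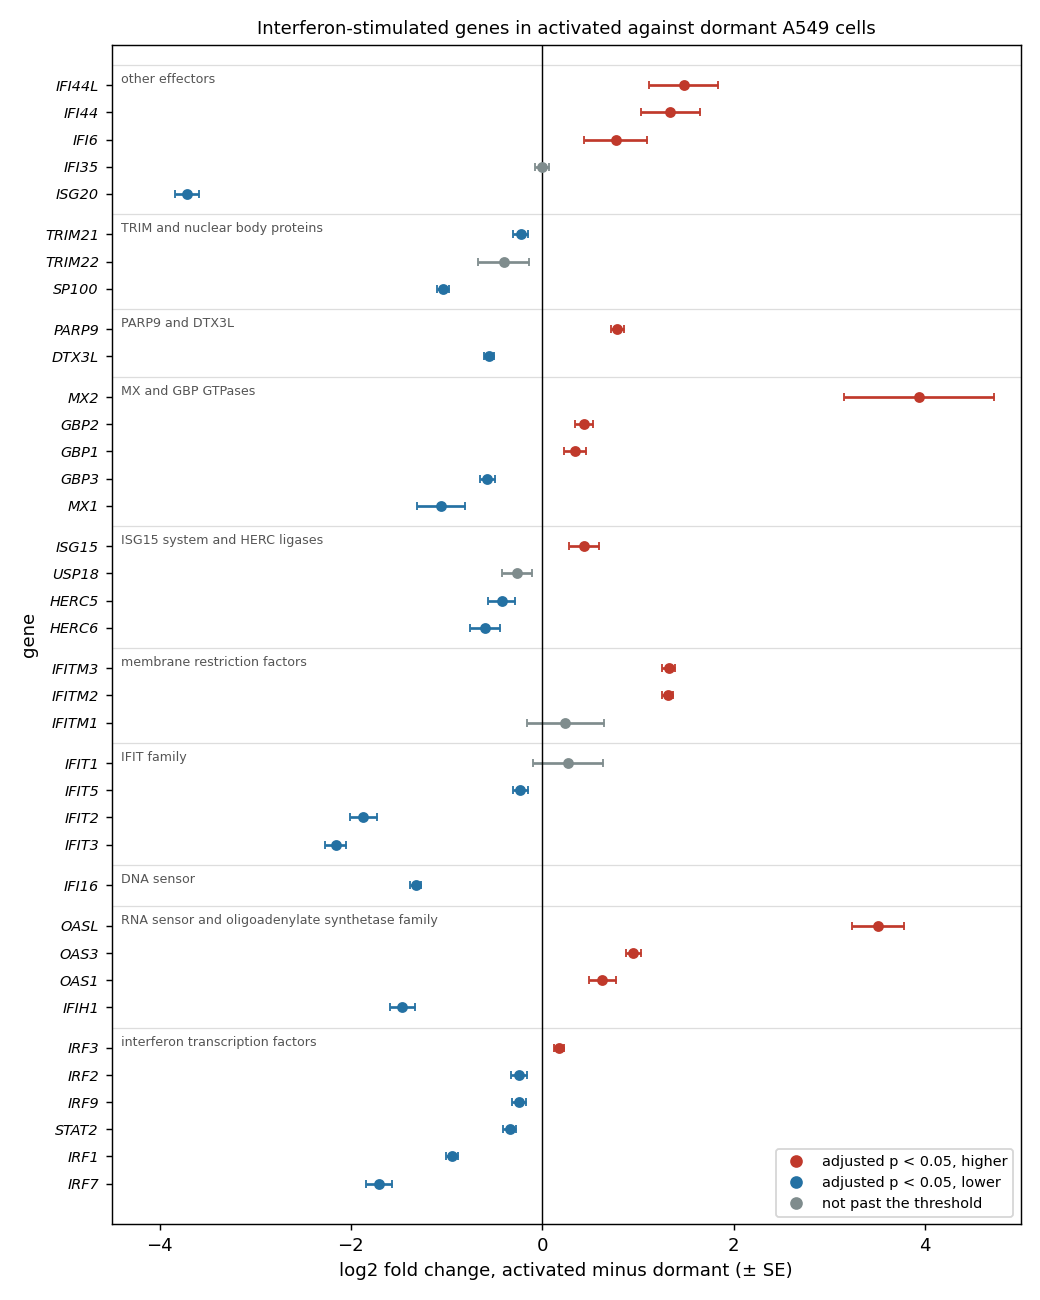
Log2 fold change of activated minus dormant cells (x axis, with the standard error as bars) for the 37 tested members, grouped by role and coloured by the call. Points lie on both sides of 0 in most groups, from -3.71 for ISG20 to 3.94 for MX2.

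Levels between genes were compared in FPKM, which is per length of transcript. The highest members in dormant cells were IRF3 at 48.8 FPKM, IFITM2 at 36.7, IFITM3 at 36.6, IFI16 at 31 and IRF1 at 21.5. In activated cells IFITM3 at 83.0 FPKM and IFITM2 at 82.8 led, followed by IRF3 at 50.1. The order among the leading members thus changed, with the IFITM pair moving above IRF3 and IFI16 falling to 11.2 FPKM. At the other end, 9 members were under 1 FPKM in both groups: OAS2, IFIT1, BST2, MX1, MX2, IFI27, IFI44L, RSAD2 and XAF1. Several of these are among the genes most strongly induced by interferon in other settings. The summed level of all 42 members was 969 to 1015 CPM in dormant and 852 to 865 CPM in activated libraries. This sum leans on the members with most counts and mixes 14 that rose with 18 that fell. Within it IFI16 went from 156.7 to 62.7 CPM and IFITM2 from 35.2 to 87.5 CPM.

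**Figure D3:**
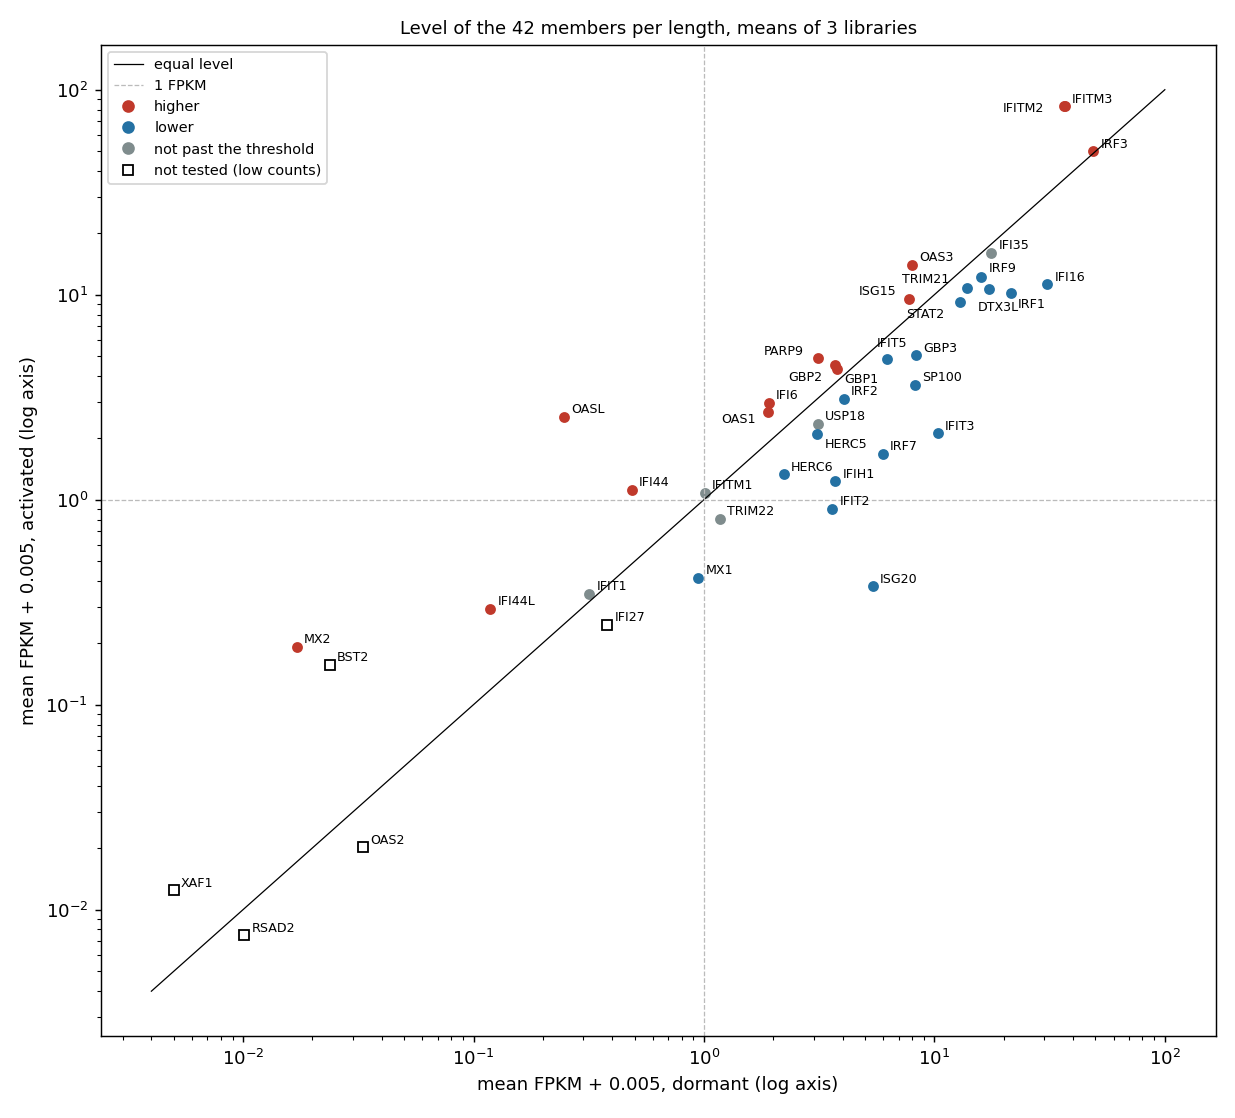
Mean FPKM of each member in dormant cells (x axis) against activated cells (y axis), both on log axes after adding 0.005, with the diagonal marking equal levels. IFITM2 and IFITM3 lie at the top right above the diagonal, ISG20 lies far below it, and 9 members are under 1 FPKM on both axes.

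Among the transcription factors, 5 of 6 members were lower in activated cells and only IRF3 was higher. Of all tested genes 37.2% were lower and 36.5% higher. IRF7, which drives the amplifying phase of interferon alpha transcription, stood at 11.2, 11.5 and 10.8 CPM in the dormant libraries and at 3.36, 3.34 and 3.60 CPM in the activated ones. Every activated library was far below every dormant one, and the fall was 3.26-fold (log2 change -1.70 ± 0.14 SE, edgeR adjusted p = 2.65e-08). IRF1, a transcription factor induced by interferon gamma, was at 69.2, 76.8 and 73.2 CPM in dormant cells and at 38.7, 38.0 and 37.4 CPM in activated cells, a fall of 1.92-fold. Its groups were far apart, and 22% of its exonic bases overlap transcripts of the other strand. IRF2, an antagonist of IRF1 that binds like elements, was at 37.3, 32.5 and 31.5 CPM and then at 27.8, 26.9 and 31 CPM.

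STAT2 and IRF9, partners in ISGF3, were also lower. STAT2 was at 56.3, 63.9 and 54.9 CPM in dormant and 43.9, 46.9 and 47.7 CPM in activated libraries, 1.26-fold lower (edgeR adjusted p = 0.000377). IRF9 was at 25.6, 27.8 and 27.7 CPM against 23.1, 22 and 23.3 CPM, 1.19-fold lower. The ranges of both genes were narrow and apart, but 48.4% of IRF9's exonic bases lie in a same-strand coding gene that runs through it, so its counts are uncertain. IRF3, a constitutive factor activated by phosphorylation after nucleic acid sensing, was at 80.8, 86.2 and 84.5 CPM and then at 99.1, 92.4 and 92.6 CPM. This is the smallest change of a called member, 1.13-fold, and it was lost when libraries were scaled by total counts (log2 change 0.04, edgeR adjusted p = 0.569), with the length correction (edgeR adjusted p = 0.258) and in the limma fits of FPKM values (limma adjusted p = 0.524 with a filter). Of IRF3's exonic bases, 19.3% overlap BCL2L12 on the other strand. IRF2 did not pass the test without dormant replicate 1 (edgeR adjusted p = 0.109) or without activated replicate 2 (edgeR adjusted p = 0.0518), and with a correction for gene length its log2 change was -0.11 (edgeR adjusted p = 0.235).

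The sensors IFIH1 and IFI16 were lower, and OAS1, OAS3 and OASL were higher. IFIH1, which encodes the RNA sensor MDA5, was at 12.7, 13.2 and 12.1 CPM in dormant and 4.09, 4.52 and 5.18 CPM in activated libraries. The groups stood well apart, a fall of 2.75-fold (log2 change -1.46 ± 0.13 SE, edgeR adjusted p = 1.19e-07). IFI16, a DNA sensor, was at 149, 164 and 157 CPM and then at 67.0, 59.7 and 61.4 CPM, a fall of 2.50-fold (log2 change -1.32 ± 0.06 SE, edgeR adjusted p = 4.17e-11). Both sensors were thus lower in every activated library.

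OAS enzymes make 2′-5′ oligoadenylates that switch on RNase L. OAS3 was at 53.7, 47.3 and 49.8 CPM in dormant and 86.5, 106 and 99.9 CPM in activated libraries, a rise of 1.94-fold (log2 change 0.95 ± 0.07 SE, edgeR adjusted p = 1.97e-08). OAS1 was at 5.96, 7.0 and 7.47 CPM and then at 9.94, 9.62 and 12.1 CPM, a rise of 1.55-fold. Both enzymes rose with no overlap between the groups. OASL, a relative without synthetase activity that enhances RIG-I signalling, had 21, 24 and 13 counts in dormant and 184, 252 and 168 counts in activated libraries. It was nearly silent in dormant cells, and the rise was 11.4-fold (log2 change 3.51 ± 0.27 SE, edgeR adjusted p = 2.1e-08), or 2.82-fold on the log2(FPKM + 1) scale, which shrinks low genes. The fourth member of the family, OAS2, had 15 counts in all dormant and 8 in all activated libraries and was not tested (ratio after scaling 0.587, exact 95% counting interval 0.216 to 1.48).

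The IFIT proteins bind viral RNA and restrict translation, and 3 of the 4 members were lower, as were 37.2% of all tested genes. IFIT3 was at 25.6, 26.6 and 24.9 CPM in dormant and 6.61, 5.13 and 5.54 CPM in activated libraries. The fall was 4.46-fold (log2 change -2.16 ± 0.11 SE, edgeR adjusted p = 1.55e-10). IFIT2 was at 12.1, 11 and 11.9 CPM and then at 2.92, 3.23 and 3.41 CPM, 3.66-fold lower (log2 change -1.87 ± 0.14 SE, edgeR adjusted p = 1.3e-08). No activated library of either gene came near a dormant one. IFIT5, at 22.7, 25.2 and 23.9 CPM against 20.3, 19.7 and 21.4 CPM, was only 1.17-fold lower, and that call was lost without dormant replicate 2, dormant replicate 3 or activated replicate 2 (edgeR adjusted p up to 0.0793). IFIT1 had 40, 80 and 32 counts in dormant and 41, 61 and 63 counts in activated libraries. Its groups overlapped and it did not pass the test (log2 change 0.27 ± 0.36 SE, edgeR adjusted p = 0.511), and in dormant cells it stood at 0.312 FPKM where its chromosome 10 neighbour IFIT3 stood at 10.3 FPKM. Of IFIT2's sequence, 7.5% of 50-base words also occur in other transcripts.

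The IFITM proteins sit in membranes and block virus entry, and both well-expressed members rose by nearly the same factor. IFITM2 was at 36.4, 33.9 and 35.3 CPM in dormant and 85.6, 87.5 and 89.3 CPM in activated libraries, a rise of 2.48-fold (log2 change 1.31 ± 0.06 SE, edgeR adjusted p = 2.35e-11). IFITM3 was at 22.3, 21.3 and 20.3 CPM and then at 54.6, 52.8 and 52.4 CPM, 2.50-fold higher (log2 change 1.32 ± 0.07 SE, edgeR adjusted p = 1.24e-10). The highest dormant library lay far below the lowest activated one for both genes. IFITM1 had 28, 28 and 16 counts and then 31, 24 and 22 counts, and it did not pass the test (log2 change 0.24 ± 0.40 SE, edgeR adjusted p = 0.603). These near-identical neighbours share 32.0% (IFITM1), 34.1% (IFITM2) and 17.4% (IFITM3) of their 50-base words with other transcripts, so the division of reads among them is uncertain. BST2, which encodes tetherin, had 0, 1 and 1 counts in dormant and 1, 6 and 9 counts in activated libraries and was not tested. The BST2 totals of 2 and 16 counts give a ratio of 8.81 with an exact 95% counting interval of 2.07 to 79.0.

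ISG15 is a ubiquitin-like protein that HERC5 attaches to target proteins and USP18 removes. ISG15 itself was at 4.14, 5.07 and 4.95 CPM in dormant and 6.63, 5.94 and 6.61 CPM in activated libraries, 1.35-fold higher (edgeR adjusted p = 0.0208). HERC5 was at 11.7, 13.0 and 10.9 CPM against 10.5, 7.32 and 8.74 CPM, 1.34-fold lower, and HERC6 went from 9.14, 9.31 and 7.97 CPM to 7.04, 5.33 and 5.06 CPM, 1.52-fold lower. The modifier and its ligase thus moved in opposite directions by small amounts. The ISG15 call was lost with total counts (edgeR adjusted p = 0.103) and without dormant replicate 1 or activated replicate 3, and with a correction for gene length the ISG15 change shrank to 0.12 on the log2 scale (edgeR adjusted p = 0.515). The HERC5 call was lost without dormant replicate 2 or activated replicate 2. USP18 went from 6.43 ± 0.910 to 5.35 ± 0.378 CPM (SD, n = 3 libraries) and did not pass the test (edgeR adjusted p = 0.145). It passed as lower with total counts (edgeR adjusted p = 0.0326), with the length correction (edgeR adjusted p = 0.0471) and in the limma fits of FPKM values (limma adjusted p = 0.0319 without a filter), and 23.4% of its 50-base words are shared, mostly with USP41.

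The MX and GBP proteins are large GTPases that trap viral particles and attack vacuoles of intracellular pathogens. MX1 was at 4.35, 6.12 and 5.23 CPM in dormant and 2.89, 3.11 and 1.52 CPM in activated libraries, 2.08-fold lower (log2 change -1.06 ± 0.25 SE, edgeR adjusted p = 0.00144). MX2 had 1, 4 and 0 counts in dormant and 26, 12 and 36 counts in activated libraries. These neighbours on chromosome 21 moved in opposite directions, both from low levels. MX2 was tested only because of its activated libraries, and its total counts of 5 and 74 give a ratio of 16.3 with an exact 95% counting interval of 6.68 to 51.7. The fitted MX2 change was 15.3-fold (log2 change 3.94 ± 0.79 SE, edgeR adjusted p = 0.000376), rising to 42.8-fold without dormant replicate 2, which held 4 of the 5 dormant counts. On the log2(FPKM + 1) scale without a filter, which shrinks low genes, the MX2 rise was 1.17-fold and the MX1 fall 1.38-fold.

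The 3 guanylate-binding proteins lie side by side on chromosome 1 and did not move together. GBP2 was at 13.7, 15.2 and 14.2 CPM in dormant and 19.1, 20.8 and 18.3 CPM in activated libraries, 1.35-fold higher (edgeR adjusted p = 0.000611). GBP1 was at 11.6, 9.31 and 9.76 CPM against 12.4, 13.8 and 12.8 CPM, 1.27-fold higher (edgeR adjusted p = 0.0143). GBP3 was at 27.6, 25.4 and 26.9 CPM against 18.2, 16.9 and 18.6 CPM, 1.49-fold lower (edgeR adjusted p = 1.12e-05). Per length, GBP3 was at 8.29 and GBP2 at 3.69 FPKM in dormant cells, and at 5.06 and 4.53 FPKM in activated cells. The GBP1 call was lost with total counts (edgeR adjusted p = 0.116), in the limma fits of FPKM values (limma adjusted p = 0.0641 with a filter) and without dormant replicate 2 or 3, and 10.2% of GBP2's and 9.62% of GBP1's 50-base words are shared with other transcripts.

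**Figure D4:**
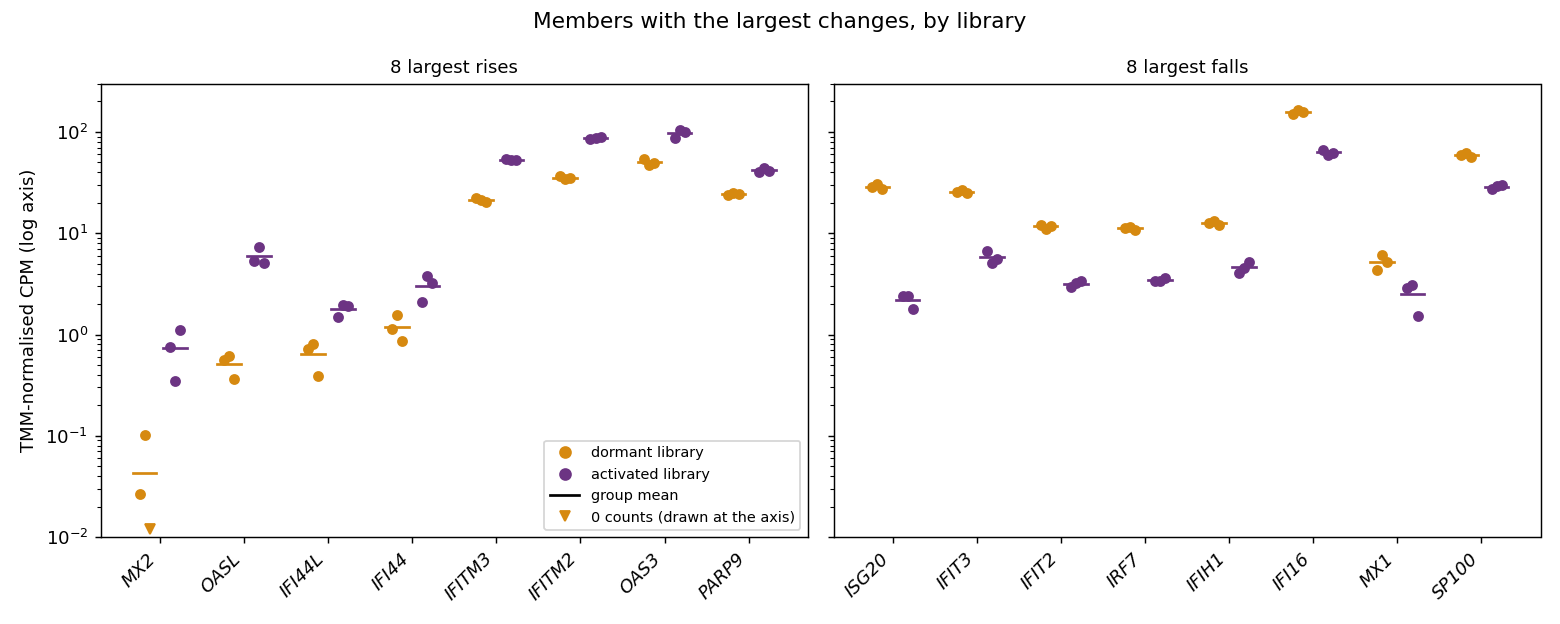
TMM-normalised CPM (log axis) in each dormant and activated library for the 8 members with the largest rises (left) and the 8 with the largest falls (right), with horizontal lines at the group means. The 16 genes were picked from the called members, and the 2 groups do not overlap for any of them. Over all tested genes 76.5% do not overlap. MX2 was admitted to the test only by its activated libraries, and the library without MX2 counts is drawn at the axis.

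PARP9 and DTX3L are partners in a complex that modifies histones and interferon-pathway proteins, and they are transcribed from opposite strands of chromosome 3. A listed start of PARP9, at base 122564300, lies 38 bases from that of DTX3L, and both promoter windows contain the response element match at chr3:122564332-122564341 shown above. The other listed start of PARP9, at base 122564784, lies 446 bases from that of DTX3L. PARP9 was at 24.0, 24.9 and 24.2 CPM in dormant and 39.8, 44.5 and 41.4 CPM in activated libraries, a rise of 1.72-fold (log2 change 0.78 ± 0.07 SE, edgeR adjusted p = 7.9e-08). DTX3L was at 90.5, 99.0 and 94.6 CPM and then at 62.5, 65.0 and 65.8 CPM, a fall of 1.47-fold (edgeR adjusted p = 2.76e-07). The partners thus changed in opposite directions, and their CPM values lay closer together in activated cells. The number of PARP9 counts per DTX3L count, which does not depend on library scaling, was 0.265, 0.251 and 0.255 in dormant and 0.636, 0.684 and 0.629 in activated libraries, a rise of 2.52-fold. Their annotated exons overlap by 217 bases, 3.7% of DTX3L's exonic bases and 2.43% of PARP9's, and the sources used here do not give the strand setting of the counting.

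Count ratios within a library were taken for 11 pairs of related members, chosen after their values were seen. With 3 libraries against 3 the smallest 2-sided exact permutation p is 0.1, which 6 pairs reached without overlap between groups, and after adjustment over the 11 pairs it was 0.183. Besides PARP9 to DTX3L these were GBP1 to GBP3 (0.383 in dormant, 0.727 in activated cells), GBP2 to GBP3 (0.541 and 1.09), OASL to OAS1 (0.0770 and 0.573), IFIT5 to IFIT3 (0.932 and 3.59) and IRF1 to IRF2 (2.18 and 1.34). For PARP9 to DTX3L, GBP1 to GBP3 and GBP2 to GBP3 this lack of overlap was fixed in advance. Their genes had already moved in opposite directions without overlap in CPM. The ratio of IFITM3 to IFITM2 was 0.605 ± 0.0277 in dormant and 0.609 ± 0.0258 in activated cells (SD, n = 3; exact permutation p = 0.9). The ratio of STAT2 to IRF9, partners in ISGF3, was 2.16 ± 0.166 and 2.03 ± 0.117 (SD, n = 3; exact permutation p = 0.4).

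**Figure D5:**
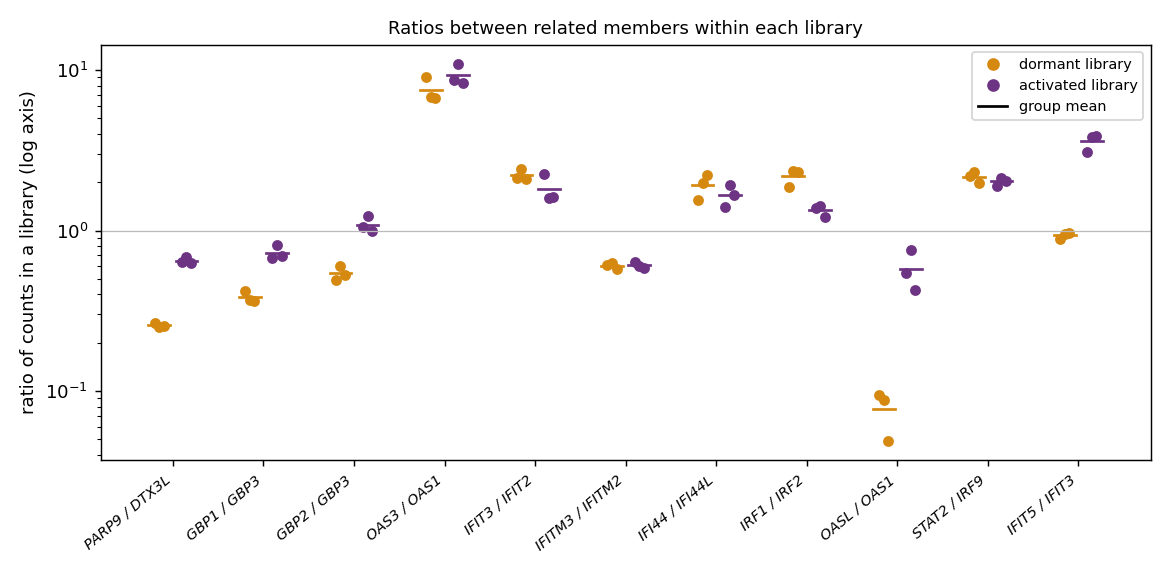
Ratio of counts of 11 pairs of related members (x axis) in each library (y axis, log scale), with horizontal lines at group means. For PARP9 to DTX3L every activated library, at 0.629 to 0.684, is above every dormant one, at 0.251 to 0.265, while IFITM3 to IFITM2 stays near 0.6 in both groups.

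SP100, a component of PML nuclear bodies that silence incoming viral DNA, was at 58.9, 62.4 and 57.1 CPM in dormant and 27.6, 29.2 and 30.0 CPM in activated libraries. The groups were widely apart, and the fall was 2.06-fold (log2 change -1.04 ± 0.06 SE, edgeR adjusted p = 1.31e-09). TRIM21, a cytosolic antibody receptor and ubiquitin ligase, was at 25.1, 26.6 and 24.7 CPM against 21.7, 23.2 and 20.5 CPM, 1.17-fold lower (edgeR adjusted p = 0.0182). The TRIM21 call was lost without dormant replicate 2 (edgeR adjusted p = 0.0767) or activated replicate 3 (edgeR adjusted p = 0.0864). TRIM22, an antiviral ubiquitin ligase, was at 3.18, 2.75 and 3.75 CPM against 3.36, 1.70 and 2.25 CPM. Its groups overlapped and it did not pass the test (edgeR adjusted p = 0.182), although it passed as lower without activated replicate 1 (edgeR adjusted p = 0.0305) and in the filtered limma fit of log2(FPKM + 1) (limma adjusted p = 0.0412).

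ISG20, an exonuclease that degrades viral RNA, had the largest fall of all members. It was at 28.4, 30.5 and 27.3 CPM in dormant and 2.40, 2.39 and 1.77 CPM in activated libraries, 13.1-fold lower (log2 change -3.71 ± 0.13 SE, edgeR adjusted p = 2.05e-12). In FPKM it went from 5.41 to 0.373, and on the log2(FPKM + 1) scale the fall was 4.67-fold. The activated libraries lay about an order of magnitude below the dormant ones. IFI44 and IFI44L, adjacent genes on chromosome 1 whose products restrain viral growth, went the other way. IFI44 was at 1.12, 1.57 and 0.867 CPM in dormant and 2.08, 3.77 and 3.20 CPM in activated libraries, 2.53-fold higher (log2 change 1.34 ± 0.31 SE, edgeR adjusted p = 0.0013). IFI44L was at 0.721, 0.797 and 0.391 CPM and then at 1.49, 1.96 and 1.92 CPM, 2.79-fold higher (log2 change 1.48 ± 0.36 SE, edgeR adjusted p = 0.00177). Both genes remained low after the rise, with IFI44 at 1.11 and IFI44L at 0.289 FPKM in activated cells. On the log2(FPKM + 1) scale without a filter, the rise was 1.42-fold for IFI44 and 1.16-fold for IFI44L.

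IFI6, a small membrane protein that counters cell death and viral replication, was at 1.74, 2.06 and 0.783 CPM in dormant and 2.22, 2.71 and 2.89 CPM in activated libraries, 1.70-fold higher. It sat just inside the threshold (edgeR adjusted p = 0.0453) and was lost when any of dormant replicates 1 and 3 or activated replicates 2 and 3 was left out (edgeR adjusted p up to 0.165). It was also lost with total counts (edgeR adjusted p = 0.0962), upper-quartile factors (0.0537), the length correction (0.151) and unfiltered log2(FPKM + 1) (limma adjusted p = 0.108). IFI35, a regulator of innate signalling, was at 23.5 ± 1.09 and 23.5 ± 1.03 CPM (SD, n = 3 libraries; edgeR adjusted p = 0.97). Its values in the 2 groups overlapped, although it passed as lower in the limma fits of FPKM values (log2 difference -0.14 on the log2(FPKM + 1) scale, limma adjusted p = 0.0388 with a filter and 0.0458 without). IFI27 had 15, 7 and 8 counts in dormant and 7, 4 and 8 counts in activated libraries (ratio 0.698, exact 95% counting interval 0.371 to 1.28). RSAD2, which encodes viperin, had 1, 0 and 1 counts and then 1, 0 and 0 counts. XAF1, a pro-apoptotic interferon target, had no count in the dormant libraries, which allows up to 0.0268 CPM over that group (3 counts), and its 4 counts all came from activated replicate 2. A difference in OAS2, IFI27, RSAD2 or XAF1 was not detectable at this depth, and these limits and intervals cover counting error only.

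Within the dormant group the libraries were not evenly placed for these genes. Dormant replicate 2 held the highest dormant CPM for 25 of the 37 tested members (67.6%), against 34.8% of all tested genes, and dormant replicate 3 held the lowest for 18 (48.6%), against 30.5%. The activated libraries held the highest activated CPM for 12, 10 and 15 members (32.4%, 27% and 40.5%), against 36.4%, 35.5% and 28.1% of all tested genes. Without dormant replicate 2, 13 members were higher and 15 lower, and IFIT5, HERC5, GBP1 and TRIM21 no longer passed. Scaling by total counts moved the median of all genes to -0.16 on the log2 scale and gave 10 members higher and 19 lower, and the share of called genes that were higher fell from 49.5% to 39.7%.

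The rest of the interferon pathway was taken as 5 lists of 114 genes in the count table, of which 79 were tested. Of these, 30 were higher and 30 lower in activated cells, or 38% each way, where 36.5% of all tested genes were higher and 37.2% lower. STING1 and GBP5, both among the higher genes, were admitted to the test only by their activated libraries. The median log2 change of the lists was -0.00. The ligands were almost absent: 18 of 21 interferon genes, IFNB1 and IFNG included, had no count in any library. Only IFNE, a type I interferon of epithelia, had enough counts to test, with 101, 195 and 124 counts in dormant and 258, 237 and 230 counts in activated libraries, 1.91-fold higher (edgeR adjusted p = 0.000782). The chemokines CXCL9, CXCL10 and CXCL11, classical targets of interferon gamma, also had no count in any library.

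Of the 10 receptors and receptor kinases, 5 were higher, 4 were lower and IFNAR1 did not pass. The shares were 50% and 40%, against 36.5% higher and 37.2% lower among all tested genes. IFNGR1, a receptor chain for interferon gamma, was 1.72-fold higher, while the other chain IFNGR2 was 1.20-fold lower and JAK2, the kinase bound to IFNGR2, was 1.81-fold higher. IFNAR1 stood at 49.4 CPM in both groups, JAK1 was 1.20-fold lower, and IFNAR2 was 1.29-fold higher with 83.2% of its exonic bases overlapping other genes. IFNLR1, the interferon lambda receptor chain, fell from 5.16 to 1.72 CPM, 3.01-fold (1.56-fold on the log2(FPKM + 1) scale).

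Of 14 tested sensing genes 5 were higher and 6 lower (35.7% and 42.9%, against 36.5% and 37.2% of all tested genes). TLR3, an endosomal RNA sensor, was 3.30-fold lower (1.5-fold on the log2(FPKM + 1) scale), IRF5 was 3.14-fold lower, and DDX41 was 1.51-fold higher. STING1, the adaptor of DNA sensing, had 1, 4 and 6 counts in dormant and 10, 57 and 21 counts in activated libraries. It was tested only because of its activated libraries (8.48-fold, edgeR adjusted p = 0.00164) and did not pass on the log2(FPKM + 1) scale (limma adjusted p = 0.0695). Of 14 tested negative regulators 4 were higher and 3 lower (28.6% and 21.4%, against 36.5% and 37.2% of all tested genes). SOCS3, an inhibitor of cytokine receptors, rose from 31.1 ± 3.57 to 215 ± 0.859 CPM (SD, n = 3 libraries), 6.92-fold (edgeR adjusted p = 1.32e-13), SAMHD1 was 2.10-fold higher, NLRC5 was 1.58-fold lower and PIAS4 was 1.44-fold lower.

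Of 40 other tested interferon-induced genes 15 were higher, 17 lower and 8 did not pass. The shares were 37.5% higher and 42.5% lower, against 36.5% and 37.2% of all tested genes. GBP5, among the higher genes, had 24 dormant and 72 activated counts and was tested only because of its activated libraries. APOL1, a trypanolytic apolipoprotein, rose 8.0-fold from 13.7 to 109 CPM (edgeR adjusted p = 2.05e-13). SLFN11, which blocks translation of viral proteins, was 4.31-fold higher, and its relative SLFN5 was 2.49-fold lower, from 222 to 89.2 CPM. BATF2, a transcription factor, was 2.73-fold lower.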

How the data were processed

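The authors deposited raw counts per gene and FPKM values for the 6 libraries; per the submitters' processing notes reads were handled with fastp, HISAT2 and HTSeq on GRCh38, and the sources used here do not give versions, annotation or strand setting. The deposited FPKM equal the counts divided by 1 length per gene and the library total. Counts were tested with edgeR 4.0.16 (R 4.3.3) over all 13336 genes that passed filterByExpr. TMM factors, the quasi-likelihood F test and a Benjamini-Hochberg threshold of 0.05 were used. The code was also run on simulated data in which few genes changed, unlike here, so that run does not assess the scaling. The SE is the absolute log2 change divided by the square root of F. Alternatives used DESeq2 1.42.0, limma 3.58.1 on log2 FPKM, other scalings and filters, a length correction and single libraries left out. Members and lists were chosen with earlier results of these data known. Every member is accounted for; the 8 largest rises and 8 largest falls have full statistics, and of each pathway list the 2 largest changes each way are named, with JAK1, IFNAR1 and IFNAR2 (a further gene of the rule is not reported here); CXCL9, CXCL10, CXCL11, IFNB1, IFNG and the single marker genes were named after their values were seen. Promoter windows come from RefSeq (GRCh38.p14). Exon overlaps and shared 50-base words were computed from GENCODE 29, which may differ from the authors' annotation.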

Additional observations from a re-analysis of the deposited data

How the results depend on the processing

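DESeq2, DESeq2 size factors, limma voom and no filter each gave 14 members higher and 18 lower, with all 32 calls kept, and 25 of the 37 tested members had the same direction and call under every alternative that tested them. Leaving out 1 library gave 12 to 14 members higher and 15 to 19 lower, 28 to 31 pathway genes each way, and 9298 to 9756 changed genes, 4625 to 4836 higher and 4645 to 4920 lower. Limma on log2(FPKM + 1) without a filter gave 19 pathway genes higher, where edgeR gave 30, and 11 members higher and 20 lower. With a filter on FPKM it gave 10 and 21, and moved the median of all genes to -0.12 (-0.14 with log2(FPKM + 0.1)). FPKM are divided by the library total without TMM factors, a scaling shared with the total-count fit in edgeR. That fit gave 10 members higher and 19 lower and a median of -0.16. The part of this scaling in the FPKM results was not tested. Correction for gene length gave 11 and 18, and the filter of 1 CPM gave 13 and 18. IFI35, near 0, turned positive with DESeq2 and with its size factors (log2 0.0068 in both), and without dormant replicate 3 (0.0397), activated replicate 2 (0.0209) or activated replicate 3 (0.0139), with a range over single left-out libraries of -0.037 to 0.0397. IFNAR1, also near 0, turned negative with total counts (-0.137), upper-quartile factors (-0.0241) and the 1 CPM filter (-0.0034). It was also negative with log2(FPKM + 1) with and without a filter (-0.1225) and with log2(FPKM + 0.1) (-0.1366). The same held without dormant replicate 2 (-0.0109) or activated replicate 2 (-0.0401). Its highest value was 0.1123 with the length correction (edgeR adjusted p = 0.0912). Among single left-out libraries the highest was 0.0336, without activated replicate 3. IFITM1 turned negative with the length correction (-0.0673). The labels do not say whether replicate numbers pair the samples. Deviations of same-numbered libraries from their group means correlated at 0.0023, 0.0177 and 0.0033. These values show no shared replicate effect but cannot show whether the cultures were paired. A fit with the replicate block gave 9789 changed genes, 14 members higher and 18 lower. Members with few counts are limited by depth.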
